A study of Mus musculus with 12 samples.

Results

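The immediate early genes described here are 10 genes that answer a stimulus quickly, among them AP-1 and Egr transcription factor genes and other genes known to respond to load. They were taken by name, with no threshold on a value of these data: Fos, Fosb, Fosl1, Jun, Junb, Egr1, Egr2, Egr3, Ier2 and Ptgs2. All 10 were found among the 32248 rows of the count table, and all 10 passed the filter on low counts, which kept 13772 genes. The cells were OCY454, a mouse osteocyte-like line that divides at 33 °C and differentiates when moved to 37 °C. The cells were kept in alpha-MEM with 10% serum. KO cells carried a CRISPR-Cas9 deletion of exons 19 to 21 of Piezo1, the gene of a mechanically gated cation channel, and were compared with cells labelled WT. Cultures were taken for poly(A) RNA sequencing at days 1, 14 and 28 at 37 °C, which gives 6 groups (KO and WT at day 1, KO and WT at day 14, KO and WT at day 28) of 2 libraries each. The labels name no added stimulus or load, so the values are levels in cultures kept in 12-well plates with no stimulus named. Whether these cultures were at rest was not tested. The labels do not say how many edited clones were used or whether the replicates were separate cultures, so p-values here cover no more than the spread among these libraries.

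Immediate early genes are switched on by transcription factors that are already present in the resting cell, chiefly serum response factor with its partners and CREB, which receive signals from MAP kinases and calcium. Fos and Jun family proteins pair through leucine zippers to form AP-1, the Egr proteins are zinc finger transcription factors, Ier2 is a short early-response nuclear protein, and Ptgs2 encodes the inducible cyclooxygenase COX-2. In osteoblasts and osteocytes, fluid flow and loading are known to raise Fos, Egr1 and Ptgs2, and the prostaglandin E2 made through COX-2 takes part in the bone formation that follows loading.

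Total counts ran from 8590067 to 15357427 per library without 3 transgene rows. The labelled cell type was carried by osteoblast genes, with Col1a1 between 1710 and 17934.5 CPM (counts per 1000000 of the TMM-scaled library total), and by Dmp1 at 3.68 to 16.1 CPM. The 13 osteocyte markers summed to 404.6 to 420.5 CPM in KO and 319.3 to 332.3 CPM in WT at day 1, 327.5 to 340.8 CPM in KO and 362.3 to 366.1 CPM in WT at day 14, and 251.8 to 278.6 CPM in KO and 270.5 to 347.5 CPM in WT at day 28. Cd44 had 115.3 to 215.5 CPM and Fam20c 28.9 to 56.5 CPM, while Sost had 4 to 20 counts and Fgf23 0 to 2 counts per library. Marker sums of other cell types differed between the lines. At day 28 the 6 endothelial markers summed to 10.3 to 11.6 CPM in KO and 24.5 to 27 CPM in WT. At day 1 that sum was 2.5 to 3.42 CPM in KO and 4.23 to 6.1 CPM in WT, and at day 14 it was 2.31 to 3.02 CPM in KO and 10.4 to 14.2 CPM in WT. Within this list Vwf reached 21.6 CPM and Kdr 4.47 CPM in a library, while Pecam1, Cdh5, Tek and Emcn reached at most 1.31 CPM. The blood cell list summed to between 9.56 and 22.1 CPM over all libraries, with Cd3e at 0, the adipocyte list to between 16 and 24.5 CPM and the skeletal muscle list to between 6.37 and 16.1 CPM, with Myod1 and Myog at 0 everywhere. The 7 chondrocyte markers summed to 64.4 to 68.4 CPM in KO and 73 to 88.7 CPM in WT at day 1, 54.3 to 56.7 CPM in KO and 95.2 to 97.5 CPM in WT at day 14, and 42 to 44.6 CPM in KO and 71.4 to 84.3 CPM in WT at day 28. In that list Sox9 had 28.2 to 59.3 CPM and Hapln1 2.13 to 55.5 CPM, while Acan, Col9a1 and Matn1 had at most 8 counts. The 12 osteoblast markers also differed at day 14, with sums of 42726 to 42789 CPM in KO and 25066 to 26297 CPM in WT. Of these 12, 8 were higher and 4 lower in KO at an adjusted p below 0.05, against 23.8% and 25.9% of all genes tested. The part of other cell types in the results below was not tested. In bulk RNA, fewer cells of a type and less RNA per cell cannot be told apart. Piezo1 itself had 169.6 ± 0.323 CPM in KO and 215.3 ± 1.13 CPM in WT at day 1, 110.9 ± 4.76 CPM in KO and 208.4 ± 3.25 CPM in WT at day 14, and 278.5 ± 4.19 CPM in KO and 238.5 ± 4.73 CPM in WT at day 28 (SD, n = 2 each). Ctu2 on the opposite strand covers 24.6% of the exon length of Piezo1. Since the deletion removes only 3 exons, a gene-level count is a weak check of the genotype. The table also holds a transgene row, YAPS127_P2A_EGFP, with 1 and 3 counts in KO and 82 and 45 in WT at day 14, 7 and 2 in KO and 224 and 75 in WT at day 28, and 0 to 3 in every library of day 1. The labels name no transgene, and the WT label of the libraries of days 14 and 28, on which each KO minus WT value at those days rests, is in doubt to that extent. The part of this difference in the results was not tested.

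The sequences upstream of 4 members are shown because these genes are switched on through short elements near the start, and because Jun, Junb and Egr2 were called lower in KO at day 28 whereas Fos was not called. Each is the 250 bases before a RefSeq start site (build GRCm38.p6), 5′ to 3′ on the gene's strand, with motif matches in capitals. RefSeq entries were found for 6 members (Fos, Fosb, Jun, Junb, Egr2 and Ptgs2), and Egr2 had 5 start sites, of which the third is printed. The windows are chr12:85473640-85473889 (plus strand) for Fos, chr4:95052223-95052472 (minus strand) for Jun, chr8:84978749-84978998 (minus strand) for Junb and chr10:67537619-67537868 (plus strand) for Egr2.
Fos: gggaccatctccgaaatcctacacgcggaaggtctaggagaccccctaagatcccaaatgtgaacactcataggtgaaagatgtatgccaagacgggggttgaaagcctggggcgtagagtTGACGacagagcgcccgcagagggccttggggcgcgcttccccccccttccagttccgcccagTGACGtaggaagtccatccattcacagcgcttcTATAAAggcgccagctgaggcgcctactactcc
Jun: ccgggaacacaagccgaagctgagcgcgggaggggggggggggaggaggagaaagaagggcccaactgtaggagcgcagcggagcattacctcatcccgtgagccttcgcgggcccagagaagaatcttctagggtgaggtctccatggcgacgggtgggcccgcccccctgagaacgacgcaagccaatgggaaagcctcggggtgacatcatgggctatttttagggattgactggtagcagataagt
Junb: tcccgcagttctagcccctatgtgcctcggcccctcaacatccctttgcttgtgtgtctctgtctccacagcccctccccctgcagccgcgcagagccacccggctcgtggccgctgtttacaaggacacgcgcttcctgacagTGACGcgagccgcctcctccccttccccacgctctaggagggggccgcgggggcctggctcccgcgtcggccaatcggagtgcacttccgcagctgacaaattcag
Egr2: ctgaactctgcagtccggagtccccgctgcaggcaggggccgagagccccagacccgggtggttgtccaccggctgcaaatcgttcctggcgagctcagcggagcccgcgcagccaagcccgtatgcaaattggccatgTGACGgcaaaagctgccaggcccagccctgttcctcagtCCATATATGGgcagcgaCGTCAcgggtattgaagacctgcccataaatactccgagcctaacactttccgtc
Both strands were searched for the CArG box bound by serum response factor, for the cAMP response element TGACGTCA and its core TGACG, for the AP-1 element TGACTCA, for the Egr element GCGNGGGCG and for TATAAA. Matches to TGACG include any match to TGACGTCA. In Fos, TGACG began at -129 and at -66 and TATAAA at -33 from the start. In the printed Egr2 window, the CArG box began at -72, with TGACG at -111 on the plus strand and at -55 on the minus strand. The windows of Egr2 starts 3, 4 and 5 held 3 matches each. The window of start 2 held 1, a CArG box, and that of start 1 held 0. In Junb TGACG began at -106. Jun held none of these letters in its window. Counting 300-base windows that also include the 50 bases after the start, TGACG was in 5 of the 6 members with an entry, in at least 1 window of 23% of all 27025 genes, and in 20.8% of all 32851 windows. The CArG box was in 1 of 6 members, 1.81% of genes and 1.63% of windows, and GCGNGGGCG in 1 member (Fosb), 6.27% of genes and 5.55% of windows. TATAAA was in 2 members, 15.7% of genes and 13.6% of windows. In Fos it lay before the start, and in Junb it began at position 1, past the printed bases. TGACTCA was in 0 members, 5.95% of genes and 5.2% of windows, and TGACGTCA in 0 members, 2.03% of genes and 1.79% of windows. These matches are a description of the letters and show no binding.

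Levels of different members were compared per length of exon, as CPM per kilobase (RPKM). Averaged over the 6 groups, the order was Egr1 (25.8 RPKM), Ier2 (22.1), Jun (17.5), Junb (12.5), Fos (6.42), Egr3 (3.91), Egr2 (3.44), Ptgs2 (2.34), Fosl1 (1.46) and Fosb (0.804). Neighbours in this order overlapped. Egr1 was above Ier2 in 8 of 12 libraries, Ier2 above Jun in 8, Jun above Junb in 9 and Egr3 above Egr2 in 7. Only the last step was close to uniform, with Fosl1 above Fosb in 11 of 12 libraries. The level and place of Fosl1 are uncertain. Exons of Ccdc85b on the opposite strand cover 57.2% of its exon length, and the strand setting of the counting is not given. Between libraries Egr1 ranged from 13.4 to 41.1 RPKM, Jun from 6.89 to 25.7 RPKM and Ptgs2 from 0.639 to 5.43 RPKM. Fosl1 and Fosb rested on few reads, at 9 to 96 and 19 to 164 counts per library, while Egr1 had 518 to 2640.

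Between the lines, the AP-1 and Egr genes were mostly lower in KO by day 28, and Ptgs2 was higher. At day 28, 1 of the 10 members was higher in KO, 6 were lower and 3 were not called, where called means an adjusted p below 0.05. Over all genes tested 41% were called at that day (19.8% higher and 21.2% lower). At day 14, 1 was higher, 5 lower and 4 not called, against 49.7% of all genes called (23.8% higher and 25.9% lower). At day 1, 1 was higher, 3 lower and 6 not called, against 40.3% of all genes (19.5% higher and 20.8% lower). The share of members called was therefore near that of all genes at day 1 and above it at day 28 (70% of the members), and the members were chosen with earlier results of these data known. The median log2 fold change of the members was -0.02 at day 1, -0.36 at day 14 and -0.71 at day 28, beside -0.01, -0.02 and -0.01 over all genes tested. The median size of the change was 0.83 for the members at day 28 and 0.26 for all genes. Without WT day 14 replicate 1, the members called at day 14 were 3, not 6, and without WT day 1 replicate 2 those called at day 1 were 2, not 4. WT day 14 replicate 1 lay above replicate 2 in each member, so the calls of members at that day are not separate pieces of evidence.

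**Figure D1:**
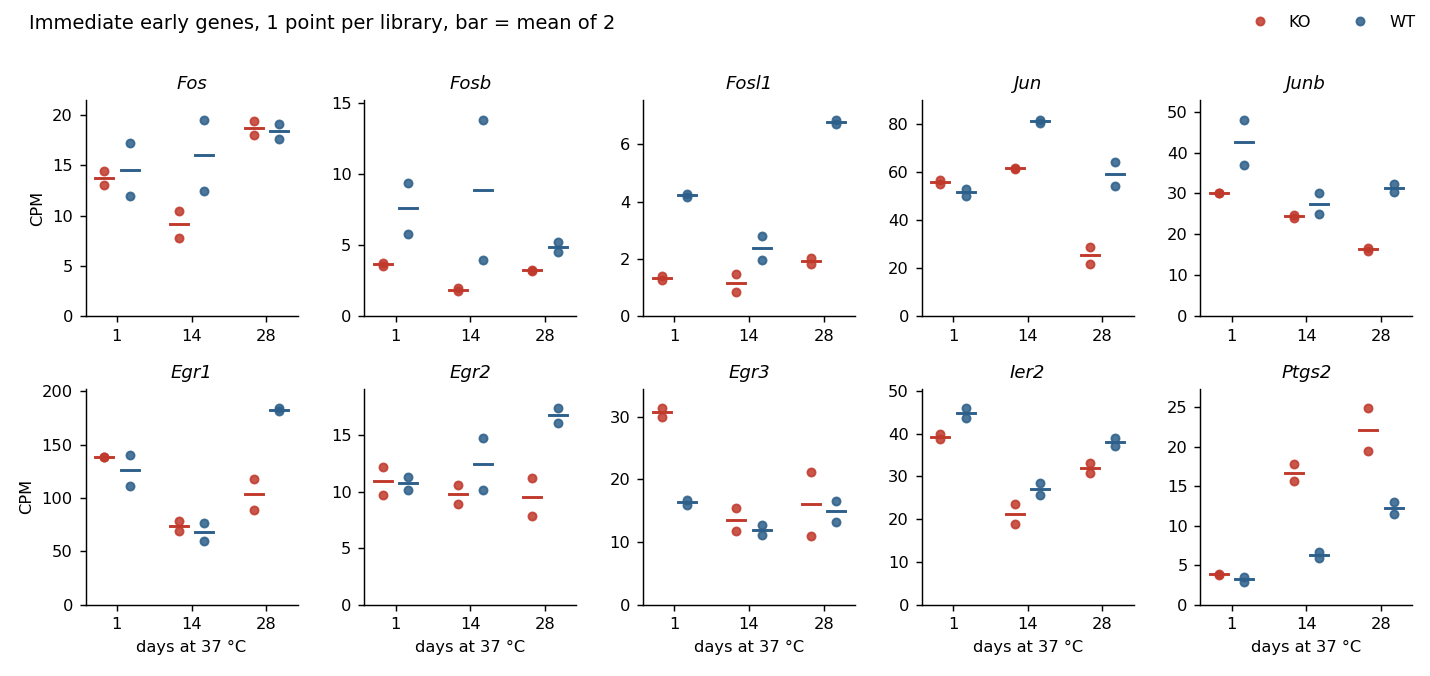
Level of each member in CPM (vertical axes from 0, scaled per gene) at 1, 14 and 28 days at 37 °C, with 1 point per library, KO in red left of WT in blue, and a bar at the mean of 2 libraries. Fosl1, Fosb, Junb and Ier2 were below WT in both KO libraries at each day (Junb at day 14 narrowly, at 24.86 against 24.88 CPM). Both KO libraries of Ptgs2 were above WT at each day, and the 2 WT libraries of day 14 stood 3.51-fold apart in Fosb.

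Fosl1, which encodes the Fos-related protein FRA-1 (ENSMUSG00000024912.6, chromosome 19, 5447547 to 5455946, plus strand), was lower in KO at each of the 3 days. Its level was 1.28 and 1.4 CPM in KO against 4.16 and 4.27 CPM in WT at day 1, 0.849 and 1.46 CPM in KO against 2.78 and 1.97 CPM in WT at day 14, and 1.82 and 2.04 CPM in KO against 6.7 and 6.85 CPM in WT at day 28. The libraries of the lines did not overlap at any day, which held for Fosb, Junb, Ier2 and Ptgs2 as well. The share of all genes for which it held was not computed. The log2 fold changes were -1.64 ± 0.29 (adjusted p = 0.000102), -1.05 ± 0.35 (adjusted p = 0.0177) and -1.80 ± 0.25 (adjusted p = 8.36e-06). The day 14 call was lost without KO day 14 replicate 1 (-0.73, adjusted p = 0.162) and without WT day 14 replicate 1 (-0.75, adjusted p = 0.21), and in DESeq2 (-1.04, adjusted p = 0.064). Exons of Ccdc85b on the opposite strand cover 57.2% of the exon length of Fosl1, and the strand setting of the counting is not given. Ccdc85b had a log2 fold change of -0.55 ± 0.10 at day 1, -0.22 ± 0.11 at day 14 and -0.52 ± 0.12 at day 28.

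Fosb, whose protein is another Fos partner of Jun (ENSMUSG00000003545.3, chromosome 7, 19302696 to 19310051, minus strand), was lower in KO at days 1 and 14. It had 3.76 and 3.53 CPM in KO against 5.79 and 9.38 CPM in WT at day 1, and 1.79 and 1.97 CPM in KO against 13.8 and 3.93 CPM in WT at day 14. The 2 WT libraries of day 14 differed by 3.51-fold, where the median gene differed by 1.07-fold. The log2 fold change of day 1 was -1.06 ± 0.36 (adjusted p = 0.0229), and that of day 14 was -2.29 ± 0.42 (adjusted p = 0.000114). Without WT day 14 replicate 1 the day 14 value was -1.06 with an adjusted p of 0.043. The day 1 call was lost without WT day 1 replicate 2 (-0.66, adjusted p = 0.279), without KO day 1 replicate 1 (-1.09, adjusted p = 0.0865) and without KO day 1 replicate 2 (-1.01, adjusted p = 0.126). At day 28 Fosb had 3.29 and 3.19 CPM in KO and 5.23 and 4.54 CPM in WT, with -0.60 ± 0.39 (adjusted p = 0.236). With no filter the day 28 value was called (-0.59, adjusted p = 0.0457).

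Fos itself (ENSMUSG00000021250.13, chromosome 12, 85473890 to 85477273, plus strand), the founding AP-1 gene, differed between the lines at day 14 only among the 3 tests. It had 7.83 and 10.5 CPM in KO against 19.6 and 12.5 CPM in WT at day 14, a change of -0.83 ± 0.20 (adjusted p = 0.002). Without WT day 14 replicate 1 this was -0.44 with an adjusted p of 0.154. At day 1 the lines overlapped, with 14.4 and 13.1 CPM in KO and 12 and 17.2 CPM in WT (-0.08 ± 0.18, adjusted p = 0.751). They overlapped again at day 28, with 19.4 and 18 CPM in KO and 19.1 and 17.7 CPM in WT (0.02 ± 0.17, adjusted p = 0.946).

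Jun, the main Jun partner in AP-1 (ENSMUSG00000052684.4, chromosome 4, 95049034 to 95052222, minus strand), had its lowest levels of the series in KO at day 28. It had 22 and 28.9 CPM in KO against 64.1 and 54.5 CPM in WT at day 28, a fall of 2.31-fold (-1.21 ± 0.10, adjusted p = 1e-08). At day 14 it had 61.5 and 61.9 CPM in KO against 81.9 and 80.6 CPM in WT (-0.40 ± 0.10, adjusted p = 0.00158). At day 1 it had 55.3 and 56.7 CPM in KO and 50.3 and 53 CPM in WT, which was not called (0.12 ± 0.10, adjusted p = 0.36). The antisense gene Junos overlaps 7.28% of the exon length of Jun on the opposite strand and held 2 to 29 counts per library. Its log2 fold change at day 28 was -2.33 ± 0.57 (adjusted p = 0.00264).

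Junb, a Jun family member known as a weaker activator than Jun (ENSMUSG00000052837.6, chromosome 8, 84974484 to 84978718, minus strand), was also lower at day 28. It had 16.8 and 15.9 CPM in KO against 30.4 and 32.4 CPM in WT (-0.94 ± 0.13, adjusted p = 4.74e-06). At day 1 it had 30.1 and 30 CPM in KO against 36.9 and 48 CPM in WT (-0.50 ± 0.11, adjusted p = 0.0013), a call that was lost without WT day 1 replicate 2 (-0.29, adjusted p = 0.0828). At day 14 Junb had 24.1 and 24.9 CPM in KO and 30.1 and 24.9 CPM in WT (-0.18 ± 0.13, adjusted p = 0.26). Prdx2 overlaps 7.52% of the exon length of Junb on the opposite strand and was higher in KO at all 3 days (0.42 ± 0.07, 0.58 ± 0.08 and 0.39 ± 0.08), the direction opposite to Junb.

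Of the 3 Egr genes, Egr1 and Egr2 were called lower in KO at day 28 only, and Egr3 was called higher at day 1 only. Egr1 (ENSMUSG00000038418.7, chromosome 18, 34859823 to 34864984, plus strand), the Egr gene with the most reads here, had 117.8 and 89.2 CPM in KO against 184.2 and 181.3 CPM in WT at day 28, a change of -0.83 ± 0.12 (adjusted p = 7.43e-06). At day 1 the lines overlapped in Egr1, with 138.6 and 138 CPM in KO and 111.4 and 140.6 CPM in WT (0.13 ± 0.11, adjusted p = 0.378). With the compared groups alone the day 1 value was called (0.14, adjusted p = 0.0123). At day 14 the lines overlapped as well, with 68.8 and 78.9 CPM in KO and 77 and 59.9 CPM in WT (0.10 ± 0.13, adjusted p = 0.544).

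Egr2, known for its role in myelinating glia and also present in bone cells (ENSMUSG00000037868.15, chromosome 10, 67535475 to 67542188, plus strand), was lower in KO at day 28. It had 11.2 and 7.81 CPM in KO against 17.4 and 16.1 CPM in WT (-0.83 ± 0.18, adjusted p = 0.00094). At day 1 it had 9.74 and 12.2 CPM in KO and 11.3 and 10.2 CPM in WT (0.04 ± 0.18, adjusted p = 0.892). At day 14 the values were 8.87 and 10.6 CPM in KO and 14.8 and 10.2 CPM in WT (-0.37 ± 0.20, adjusted p = 0.123), and without WT day 14 replicate 2 this was called (-0.59, adjusted p = 0.0332).

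Egr3, another zinc finger gene of the family (ENSMUSG00000033730.4, chromosome 14, 70077203 to 70082614, plus strand), was the only member called higher in KO at day 1. It had 30 and 31.3 CPM in KO against 15.9 and 16.7 CPM in WT, a rise of 1.88-fold (0.91 ± 0.18, adjusted p = 0.000447). At day 14 it had 15.4 and 11.7 CPM in KO and 12.7 and 11.1 CPM in WT (0.17 ± 0.23, adjusted p = 0.56). At day 28 the KO libraries stood 1.93-fold apart, at 21.2 and 11 CPM, around 16.6 and 13.2 CPM in WT (0.07 ± 0.20, adjusted p = 0.797). Without KO day 28 replicate 1 the day 28 value of Egr3 was -0.45 (adjusted p = 0.064), and without KO day 28 replicate 2 it was 0.50 (adjusted p = 0.0284).

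Ier2 (ENSMUSG00000053560.4, chromosome 8, 84661331 to 84662852, minus strand) showed small differences in 1 direction. It had 40 and 38.6 CPM in KO and 43.6 and 45.9 CPM in WT at day 1 (-0.19 ± 0.09, adjusted p = 0.121), and 18.9 and 23.5 CPM in KO against 28.4 and 25.6 CPM in WT at day 14 (-0.35 ± 0.11, adjusted p = 0.0135). At day 28 it had 33 and 30.7 CPM in KO against 38.9 and 37.1 CPM in WT (-0.26 ± 0.10, adjusted p = 0.0405). The day 1 value was called with the compared groups alone (-0.18, adjusted p = 0.035) and with library totals only (-0.25, adjusted p = 0.0437). The day 14 call was lost without KO day 14 replicate 1 (-0.21, adjusted p = 0.21) and without WT day 14 replicate 1 (-0.27, adjusted p = 0.152). The day 28 call lay close to the threshold: its adjusted p was between 0.0507 and 0.219 without any 1 of KO day 1 replicate 1, KO day 1 replicate 2, KO day 28 replicate 1, KO day 28 replicate 2, WT day 1 replicate 1, WT day 1 replicate 2 and WT day 28 replicate 1, and it was 0.0663 with no filter, 0.112 with the compared groups alone and 0.122 in DESeq2.

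Ptgs2 (ENSMUSG00000032487.8, chromosome 1, 150100031 to 150108227, plus strand) was called higher in KO at days 14 and 28. It had 17.7 and 15.6 CPM in KO against 6.66 and 5.9 CPM in WT at day 14, a rise of 2.63-fold (1.40 ± 0.18, adjusted p = 1.14e-06). At day 28 it had 19.4 and 24.9 CPM in KO against 11.5 and 13 CPM in WT, a rise of 1.82-fold (0.86 ± 0.15, adjusted p = 6.74e-05). At day 1 the KO libraries, at 3.93 and 3.83 CPM, lay just above the WT libraries, at 2.93 and 3.48 CPM, and the difference was not called (0.27 ± 0.23, adjusted p = 0.363). Its calls at days 14 and 28 held in each alternative run.

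**Figure D2:**
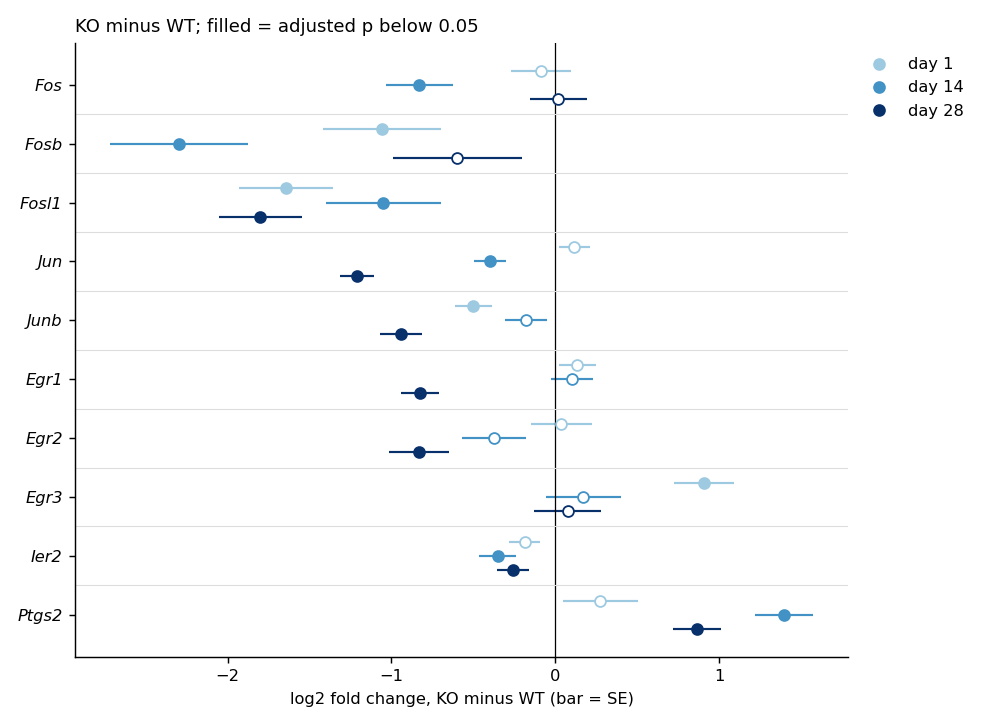
Log2 fold change of each member, KO minus WT (horizontal axis, bars are standard errors), at day 1, day 14 and day 28 from light to dark blue, with filled points where the adjusted p was below 0.05. Fosl1 lies left of 0 at each day (-1.64, -1.05 and -1.80), Jun, Junb, Egr1 and Egr2 lie between -0.83 and -1.21 at day 28, and Ptgs2 lies at 1.40 and 0.86 at days 14 and 28.

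Within each line, time at 37 °C moved the members in different directions. From day 1 to day 28, 2 members were higher, 5 lower and 3 not called in KO, against 55.5% of all genes called (28.2% higher and 27.4% lower), and 4 rather than 7 were called in KO without KO day 28 replicate 2. In WT, 4 were higher, 2 lower and 4 not called, against 48% of all genes (24.6% higher and 23.4% lower). Ptgs2 rose in both lines, by 2.52 ± 0.18 (5.73-fold, adjusted p = 1.36e-10) in KO and by 1.93 ± 0.19 (3.81-fold, adjusted p = 3.4e-08) in WT. Junb fell in both, with -0.88 ± 0.13 (adjusted p = 5.82e-06) in KO and with -0.44 ± 0.11 (adjusted p = 0.00286) in WT, the second not called without WT day 1 replicate 2 (-0.23, adjusted p = 0.149). Ier2 was lower in both as well (-0.30 ± 0.10, adjusted p = 0.0127 in KO and -0.23 ± 0.09, adjusted p = 0.0469 in WT). The KO call for Ier2 was lost without KO day 1 replicate 1 (-0.28, adjusted p = 0.0704) and without KO day 28 replicate 2 (-0.25, adjusted p = 0.103). The WT call for Ier2 was lost with RLE scaling, no filter, DESeq2, the compared groups alone and the replicate block, and without KO day 1 replicate 1, KO day 1 replicate 2, WT day 1 replicate 1, WT day 1 replicate 2, WT day 14 replicate 1, WT day 14 replicate 2 or WT day 28 replicate 2 (-0.19 to -0.27, adjusted p = 0.0521 to 0.234).

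Jun, Egr1 and Egr2 separated the lines over these 28 days. Jun fell in KO (-1.13 ± 0.10, adjusted p = 1.17e-08) and was at 0.20 ± 0.09 in WT, which was not called (adjusted p = 0.0854). Jun in WT was called without KO day 28 replicate 1 (adjusted p = 0.0437), KO day 28 replicate 2 (adjusted p = 0.0439) or WT day 28 replicate 2 (0.31, adjusted p = 0.00756). Egr1 was lower at day 28 than at day 1 in KO (-0.42 ± 0.12, adjusted p = 0.00403) and higher in WT (0.54 ± 0.11, adjusted p = 0.000535). The KO fall of Egr1 was not called without KO day 28 replicate 2 (-0.23, adjusted p = 0.138) or in DESeq2 (-0.41, adjusted p = 0.0559). Egr2 rose in WT (0.64 ± 0.17, adjusted p = 0.00459) and was at -0.23 ± 0.19 in KO (adjusted p = 0.325). Egr3 fell in KO from its high start (-0.96 ± 0.19, adjusted p = 0.000205), by 1.48 without KO day 28 replicate 1 and by 0.53 without KO day 28 replicate 2, and was at -0.12 ± 0.20 in WT (adjusted p = 0.632).

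In the Fos family, 1 change from day 1 to day 28 was called in KO and 1 in WT. Fos was higher at day 28 in KO (0.44 ± 0.18, adjusted p = 0.0442), a call lost without any 1 of the 4 KO libraries of days 1 and 28 (adjusted p = 0.081 to 0.213), in DESeq2 (adjusted p = 0.0825) and with library totals only (0.36, adjusted p = 0.103). In WT Fos was at 0.34 ± 0.18 (adjusted p = 0.119), and it was called without WT day 1 replicate 2 (0.63, adjusted p = 0.0227). Fosl1 was at 0.52 ± 0.33 in KO (adjusted p = 0.19) and rose by 0.68 ± 0.22 in WT (adjusted p = 0.0138), not called without WT day 1 replicate 1 (0.67, adjusted p = 0.0744), without WT day 1 replicate 2 (0.71, adjusted p = 0.058) or in DESeq2 (0.69, adjusted p = 0.109). Fosb was at -0.17 ± 0.42 in KO (adjusted p = 0.751) and -0.63 ± 0.34 in WT (adjusted p = 0.135), where it was called without WT day 14 replicate 1 (adjusted p = 0.0291) or WT day 14 replicate 2 (adjusted p = 0.0264).

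**Figure D3:**
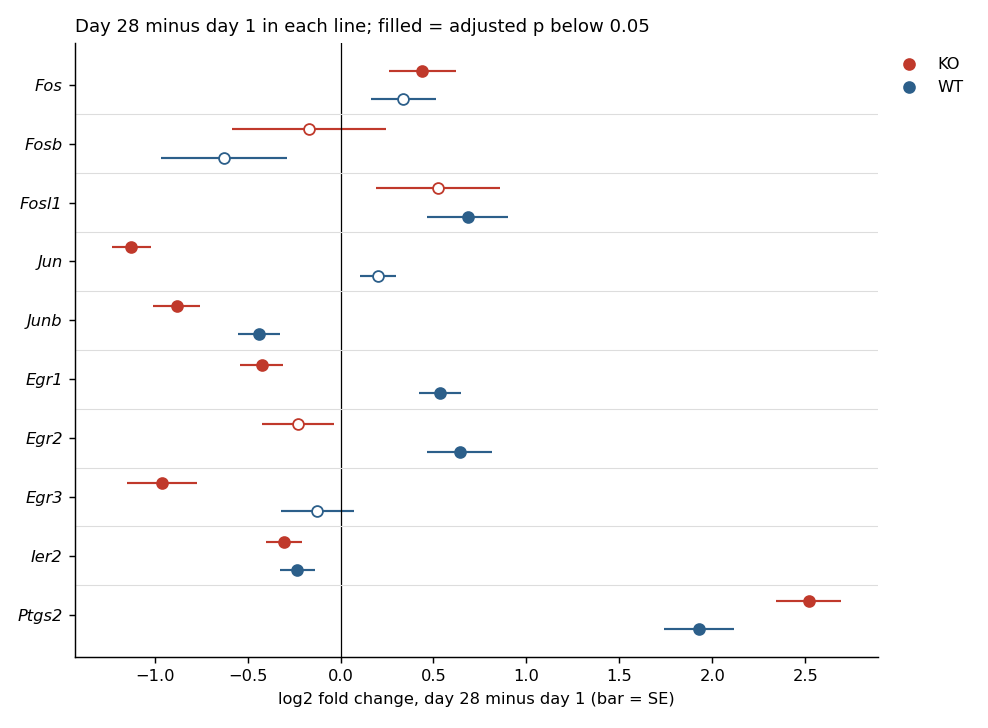
Log2 fold change of each member from day 1 to day 28 (horizontal axis, bars are standard errors) in KO in red above WT in blue, with filled points where the adjusted p was below 0.05. Ptgs2 rose by 2.52 in KO and 1.93 in WT, while Jun (-1.13 in KO, 0.20 in WT), Egr1 (-0.42 in KO, 0.54 in WT) and Egr2 (-0.23 in KO, 0.64 in WT) lie on opposite sides of 0.

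The path through day 14 was not a straight line for several members. From day 1 to day 14, 1 member was higher, 4 lower and 5 not called in KO (37.5% of all genes called, 19.4% higher and 18% lower), and 2 were higher, 4 lower and 4 not called in WT (34.1% of all genes, 18.2% higher and 15.9% lower). Egr1 dipped at day 14 in both lines, with -0.90 ± 0.12 in KO (adjusted p = 5.01e-06) and with -0.87 ± 0.12 in WT (adjusted p = 1.16e-05). Ier2 dipped with it, with -0.89 ± 0.11 in KO (adjusted p = 1.23e-06) and with -0.72 ± 0.10 in WT (adjusted p = 1.14e-05). Egr3 fell in KO (-1.18 ± 0.20, adjusted p = 6.89e-05) and was at -0.44 ± 0.21 in WT (adjusted p = 0.115), which was called without KO day 28 replicate 1 (adjusted p = 0.0267) or KO day 28 replicate 2 (adjusted p = 0.026). Ptgs2 rose in both lines, by 2.10 ± 0.18 in KO (adjusted p = 1.55e-08) and by 0.98 ± 0.22 in WT (adjusted p = 0.00129). Jun rose in WT (0.65 ± 0.09, adjusted p = 1.66e-05) and was at 0.14 ± 0.10 in KO (adjusted p = 0.273). Junb fell in WT (-0.62 ± 0.12, adjusted p = 0.000338; -0.41 without WT day 1 replicate 2) and was at -0.30 ± 0.12 in KO (adjusted p = 0.0656), which was called without WT day 1 replicate 1, WT day 1 replicate 2, WT day 28 replicate 1 or WT day 28 replicate 2 (adjusted p = 0.0367 to 0.0453).

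The Fos family and Egr2 were less even over these 14 days. Fos was lower at day 14 in KO (-0.58 ± 0.20, adjusted p = 0.0302), a call lost without KO day 1 replicate 1, KO day 1 replicate 2 or KO day 14 replicate 1 (-0.39 to -0.65, adjusted p = 0.0665 to 0.26), and was at 0.16 ± 0.18 in WT (adjusted p = 0.527). Fosl1 was at -0.20 ± 0.38 in KO (adjusted p = 0.714) and lower in WT (-0.80 ± 0.27, adjusted p = 0.0258), not called without WT day 1 replicate 1, WT day 1 replicate 2 or WT day 14 replicate 2 (-0.60 to -0.81, adjusted p = 0.0768 to 0.18) or in DESeq2 (adjusted p = 0.119). Fosb was at -0.94 ± 0.48 in KO (adjusted p = 0.127) and 0.29 ± 0.32 in WT (adjusted p = 0.518), where the sign turned without either of 2 libraries. The WT value of Fosb was -0.94 (adjusted p = 0.0428) without WT day 14 replicate 1, -0.02 without WT day 1 replicate 1, and 0.87 (adjusted p = 0.0119) without WT day 14 replicate 2. The KO value was called without WT day 14 replicate 1 (adjusted p = 0.0248) or WT day 14 replicate 2 (adjusted p = 0.0238). Egr2 was at -0.17 ± 0.20 in KO (adjusted p = 0.517) and 0.24 ± 0.19 in WT (adjusted p = 0.352).

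From day 14 to day 28, 4 members were higher, 2 lower and 4 not called in KO (50.7% of all genes called, 25.6% higher and 25.1% lower), and 4 were higher, 2 lower and 4 not called in WT (34.7% of all genes, 17.9% higher and 16.8% lower). Egr1 rose in both lines, by 0.48 ± 0.12 in KO (adjusted p = 0.00249), to below its day 1 level, and by 1.41 ± 0.12 in WT (adjusted p = 3.59e-08), to above it. The KO rise of Egr1 was not called without KO day 14 replicate 1 (0.39, adjusted p = 0.0542) or KO day 28 replicate 1 (0.27, adjusted p = 0.0955). Ier2 rose by 0.58 ± 0.11 in KO (adjusted p = 0.000121) and by 0.49 ± 0.10 in WT (adjusted p = 0.000965). Jun fell with -1.27 ± 0.10 in KO (adjusted p = 2.03e-09) and with -0.45 ± 0.09 in WT (adjusted p = 0.000864). Fosl1 was at 0.73 ± 0.35 in KO (adjusted p = 0.0934) and rose by 1.48 ± 0.26 in WT (adjusted p = 0.000144). Fos rose in KO (1.02 ± 0.20, adjusted p = 0.000178) and was at 0.17 ± 0.18 in WT (adjusted p = 0.498). Junb fell in KO (-0.59 ± 0.13, adjusted p = 0.000892) and was at 0.18 ± 0.12 in WT (adjusted p = 0.278).

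Ptgs2 rose again between days 14 and 28, by 0.42 ± 0.14 in KO (adjusted p = 0.0193) and by 0.95 ± 0.18 in WT (adjusted p = 0.000335). The KO call was lost without KO day 14 replicate 2 (0.32, adjusted p = 0.171), without KO day 28 replicate 2 (0.22, adjusted p = 0.319) and in DESeq2 (adjusted p = 0.0938). Fosb was at 0.78 ± 0.48 in KO (adjusted p = 0.192) and lower in WT (-0.92 ± 0.35, adjusted p = 0.0438), but without WT day 14 replicate 1 the WT value was 0.32 (adjusted p = 0.547) and without WT day 14 replicate 2 it was -1.49. That WT call was also lost without any 1 of the 6 KO libraries (adjusted p = 0.0522 to 0.0606), without WT day 28 replicate 2 (adjusted p = 0.084), in DESeq2 (adjusted p = 0.0942) and with the compared groups alone (adjusted p = 0.114). The KO value of Fosb was called without WT day 14 replicate 2 (adjusted p = 0.0495). Egr2 was at -0.06 ± 0.20 in KO (adjusted p = 0.84) and 0.40 ± 0.18 in WT (adjusted p = 0.0893), the WT value being called without WT day 14 replicate 1 (0.72, adjusted p = 0.0294). Egr3 was at 0.22 ± 0.21 in KO (adjusted p = 0.4) and 0.32 ± 0.22 in WT (adjusted p = 0.276), and the KO value was -0.30 (adjusted p = 0.21) without KO day 28 replicate 1 and 0.65 (adjusted p = 0.00499) without KO day 28 replicate 2.

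Whether the lines changed differently was tested as KO minus WT in the change between days. From day 1 to day 28, 0 members were higher and 4 lower in this term, against 20% of all genes called (10.6% higher and 9.46% lower). The 4 were Jun, Egr1, Egr2 and Egr3. From day 1 to day 14, Jun was lower and Ptgs2 higher, 2 of 10 against 18.8% of all genes (9.19% higher and 9.65% lower). From day 14 to day 28, Fos and Fosb were higher and Jun, Junb and Egr1 lower, 5 of 10 against 24.1% of all genes (12.6% higher and 11.5% lower). The count of members called over the 28 days was 2 without KO day 1 replicate 2 or KO day 28 replicate 2. From day 14 to day 28 it was 3 without WT day 14 replicate 1, KO day 14 replicate 1 or KO day 28 replicate 1, and from day 1 to day 14 it was 4 without WT day 14 replicate 2, WT day 28 replicate 1 or WT day 28 replicate 2. These terms share libraries with the comparisons above and with each other. Jun was called in each of the 3 terms, and its value over the 28 days was -1.33 ± 0.14 (adjusted p = 9.67e-07). The terms for Fos and Fosb rest on WT day 14 replicate 1, without which they were 0.46 (adjusted p = 0.293) and 0.46 (adjusted p = 0.555). Over the 28 days the Egr3 term was -1.36 (adjusted p = 0.000293) without KO day 28 replicate 1 and -0.41 (adjusted p = 0.205) without KO day 28 replicate 2, and the Egr2 term was -0.61 (adjusted p = 0.132) without KO day 28 replicate 2. Ptgs2 was at 0.59 ± 0.27 over the 28 days (adjusted p = 0.136). For Ier2 the terms were -0.16 ± 0.15, 0.09 ± 0.15 and -0.07 ± 0.14 for the changes from day 1 to 14, 14 to 28 and 1 to 28, and none was called (adjusted p = 0.487, 0.709 and 0.772). For Fosl1 they were 0.59 ± 0.47, -0.75 ± 0.45 and -0.16 ± 0.41 (adjusted p = 0.422, 0.251 and 0.833).

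Other early response genes also moved in both directions in KO. Of 30, 28 were tested (Egr4 and Dusp2 had at most 0 and 11 counts in any library). At day 28, 3 were higher and 14 lower, at day 14 7 were higher and 10 lower, and at day 1 8 were higher and 7 lower. The shares called were 60.7% at day 28, 60.7% at day 14 and 53.6% at day 1, beside 41%, 49.7% and 40.3% of all genes. The 4 named by rule were Ier5, Ier5l, Maff and Ccn2. Ier5, an early gene of the Ier2 family, was higher at 116.1 ± 0.282 CPM in KO against 64 ± 1.01 CPM in WT at day 1 (0.86 ± 0.08, adjusted p = 3.92e-08), and by 0.89 ± 0.09 and 0.78 ± 0.08 at days 14 and 28. Ier5l was higher too (0.92 ± 0.16, 0.84 ± 0.17 and 0.51 ± 0.19). Maff, a small Maf protein with a leucine zipper, was lower at 10.1 ± 1.12 CPM in KO against 33 ± 0.632 CPM in WT at day 1 (-1.70 ± 0.13, adjusted p = 1.63e-09), at day 14 (-1.49 ± 0.13) and at day 28 (-0.47 ± 0.11). Ccn2, a matricellular growth factor gene, was not called at day 1 (-0.02 ± 0.15) and was lower at day 14 (-1.51 ± 0.19, adjusted p = 1.07e-06) and day 28 (-0.80 ± 0.18).

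Genes that act upstream of the members were also called in both directions. Of 28 SRF, CREB and MAP kinase regulators, all tested, 5 were higher and 4 lower at day 1, 9 higher and 5 lower at day 14, and 7 higher and 6 lower at day 28, with a median size of change of 0.21 at day 28 beside 0.26 over all genes. The shares called were 32.1%, 50% and 46.4% at days 1, 14 and 28, beside 40.3%, 49.7% and 41% of all genes. Creb1 (0.14 ± 0.07, not called, at day 1, 0.41 ± 0.07 at day 14 and 0.71 ± 0.07 at day 28) and the serum response factor partner Elk4 (0.32 ± 0.06, 0.37 ± 0.07 and 0.65 ± 0.06) were higher in KO. The kinase gene Map2k1 was lower (-0.40 ± 0.08, -0.65 ± 0.08 and -0.21 ± 0.08), and Mapk3, which encodes ERK1, was lower at day 28 (-0.59 ± 0.10, adjusted p = 0.000113). Of 12 AP-1 and Egr partner genes, 11 were tested, with 1 higher and 1 lower at day 1 and 2 higher and 3 lower at days 14 and 28. The shares called were 18.2%, 45.5% and 45.5% at days 1, 14 and 28, beside the same 40.3%, 49.7% and 41% of all genes. Jdp2, a repressor that dimerizes with Jun, was lower at 81.7 ± 1.29 CPM in KO against 129 ± 3.01 CPM in WT at day 1 (-0.66 ± 0.07) and at 67 ± 4.14 CPM in KO against 155.9 ± 3.94 CPM in WT at day 14 (-1.22 ± 0.07, adjusted p = 2.03e-11), and it was not called at day 28 (-0.04 ± 0.07). Mafk was lower at days 14 and 28 (-0.45 ± 0.13 and -0.59 ± 0.10), and Batf3 was higher at day 28 (0.56 ± 0.14).

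Ptgs2 is 1 step of the prostaglandin pathway, whose genes were called in both directions. Of 17 prostaglandin pathway genes, 14 were tested, with 1 higher and 3 lower at day 1, 5 higher and 3 lower at day 14, and 4 higher and 3 lower at day 28. The shares called were 28.6%, 57.1% and 50% at days 1, 14 and 28, beside 40.3%, 49.7% and 41% of all genes. Pla2g4a encodes the phospholipase that frees arachidonic acid, the substrate of COX-2. It had 224.8 and 211.5 CPM in KO against 158.2 and 150.9 CPM in WT at day 14 (0.50 ± 0.07, adjusted p = 7.37e-06) and 343.3 and 381 CPM in KO against 175.9 and 199.2 CPM in WT at day 28 (0.95 ± 0.07, adjusted p = 1.01e-09). Ptges encodes the inducible synthase that turns the product of COX-2 into prostaglandin E2. It had 10.8 and 10.5 CPM in KO against 3.29 and 2.78 CPM in WT at day 14 (1.79 ± 0.22, adjusted p = 7.45e-07) and 7.96 and 10.1 CPM in KO against 4.4 and 3.55 CPM in WT at day 28 (1.18 ± 0.20, adjusted p = 6.28e-05).

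The gene of the enzyme that inactivates prostaglandin E2 and the gene of the constitutive cyclooxygenase went the other way. Hpgd, the first of these, was lower in KO at each day, with -2.46 ± 0.61 (adjusted p = 0.00277), -2.08 ± 0.37 (adjusted p = 8.94e-05) and -2.30 ± 0.46 (adjusted p = 0.000446), on 3 to 22 counts per KO library and 17 to 71 per WT library. Ptgs1, the second, was lower at day 28 on 3 to 7 counts per KO library against 34 to 58 per WT library (-3.14 ± 0.48, adjusted p = 2.03e-05), and was not called at days 1 and 14 (-0.91 ± 0.37 and 0.06 ± 0.35). Genes with known AP-1 sites in their promoters showed no single direction. Of 10, 8 were tested, with 4 higher and 1 lower at day 1, 3 higher and 3 lower at day 14, and 2 higher and 3 lower at day 28. The shares called were 62.5%, 75% and 62.5% at days 1, 14 and 28, beside 40.3%, 49.7% and 41% of all genes. The collagenase gene Mmp13 was at 48 ± 0.414 CPM in KO against 6.9 ± 0.262 CPM in WT at day 14 (2.79 ± 0.24, adjusted p = 5.45e-09). Ccnd1 was higher at day 1 (0.53 ± 0.07), lower at day 14 (-0.25 ± 0.07) and higher at day 28 (1.02 ± 0.07). Plau was higher at days 1 and 14 (0.34 ± 0.13 and 0.36 ± 0.13) and lower at day 28 (-1.06 ± 0.15). Spp1 was lower at each day (-0.47 ± 0.08, -0.81 ± 0.09 and -1.26 ± 0.08).

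**Figure D4:**
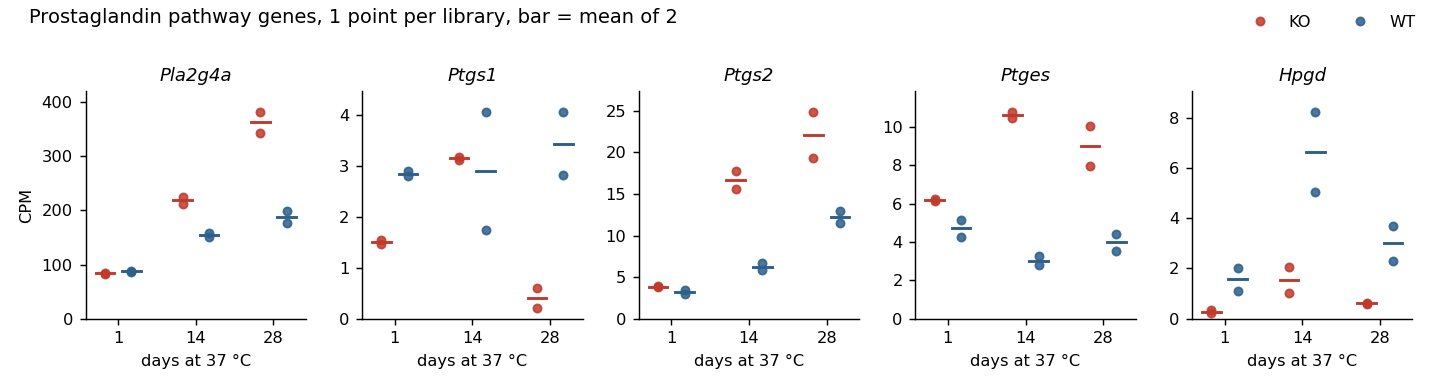
Level in CPM (vertical axes from 0, scaled per gene) of 5 genes of the prostaglandin pathway at 1, 14 and 28 days, with 1 point per library, KO in red left of WT in blue, and a bar at the mean. Pla2g4a, Ptgs2 and Ptges lie higher in KO at days 14 and 28 (Ptges 10.6 CPM in KO against 3.03 CPM in WT at day 14), and Hpgd lies lower at each day.

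The members did not share 1 pattern over the groups. Likeness was measured as the root mean square difference of log2 CPM over the 6 group means, each gene centred on its own mean. The nearest other member was Ier2 for Egr1 (0.29, 51st closest of all genes tested) and Egr1 for Ier2 (0.29, rank 951). For the other 8 members the nearest member ranked between 931 (Fosb for Fosl1) and 6870 (Fos for Ptgs2). The genes closest in pattern were Cabyr and Prkcd for Fos (0.05 and 0.06), Atp6v0e2 and Epm2a for Fosb (0.12 and 0.13), Myrf and Amz1 for Fosl1 (0.19 and 0.25), Gm12602 and C330018D20Rik for Jun (0.10 and 0.15) and 1700028K03Rik and Rasip1 for Junb (0.05 and 0.08). They were Xkr6 and C530005A16Rik for Egr1 (0.20 for both), Aebp1 and Dalrd3 for Egr2 (0.05 and 0.08), C030013C21Rik and Gm26642 for Egr3 (0.10 and 0.11), Rffl and 8430423G03Rik for Ier2 (0.06 and 0.08), and Nlrc5 and Sbspon for Ptgs2 (0.15 and 0.23).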

How the data were processed

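Per the submitters' processing notes, the authors aligned reads with STAR to mm10, counted them per gene with featureCounts (Subread) and deposited raw counts per gene; edgeR is named there with no stated role. For versions, annotation, strand setting and multi-mapped reads, the sources used here give nothing. From the counts, 3 transgene rows were left out, genes were kept with filterByExpr over the 6 groups (minimum count 10, minimum total 15), TMM gave the scaling, and edgeR 4.0.16 (R 4.3.3, limma 3.58.1) fitted all 12 libraries by quasi-likelihood with 1 coefficient per group (6 residual degrees of freedom, common BCV 5.53%). The 12 comparisons were two-sided F tests, with Benjamini-Hochberg adjustment across all 13772 genes kept. Log2 fold changes are printed with their standard error (the log2 fold change over the square root of F) after ±; CPM means carry the SD over 2 libraries. RPKM values were computed here from CPM and the GENCODE M21 exon length (GRCm38). Every column was used (0 left out). Totals ran from 8590067 to 15357427 counts, and among the members Fosl1 and Fosb had the fewest reads. The pipeline was tested on simulated data. Those counts held no deviation shared by many genes of a library, so that test gives the calls here no support. Alternatives were RLE scaling, library totals only, no filter, DESeq2 1.42.0, the compared groups alone, a replicate block, a prior count of 0.5 and each library left out.

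The named genes are all 10 members, in each other list the 2 genes highest and the 2 lowest in KO among those called at any day (average log2 CPM of at least 1), and the 2 genes most like each member. Of these, 1 is not reported here. The members and lists were chosen with earlier results of these data known.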

Additional observations from a re-analysis of the deposited data

Results flagged for a closer look

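The 11 values below stood out because the change between days differed between KO and WT by a test of that difference (an interaction term in edgeR, adjusted over all genes). Each is KO minus WT in log2 with its standard error, the terms share libraries with each other, and no cause was tested.

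From day 1 to day 14, Jun was at -0.51 ± 0.14 (adjusted p = 0.01), since it rose in WT while the KO change was not called, and Ptgs2 was at 1.12 ± 0.29 (adjusted p = 0.00892), since it rose further in KO. The Jun term was not called without WT day 1 replicate 1 (-0.47, adjusted p = 0.0522), nor the Ptgs2 term without WT day 1 replicate 2 (0.99, adjusted p = 0.0646). The Ptgs2 term from day 14 to day 28 was not called, but was without KO day 28 replicate 2 (-0.73, adjusted p = 0.0362).

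From day 14 to day 28, Fos was at 0.85 ± 0.27 (adjusted p = 0.0252) and Fosb at 1.70 ± 0.59 (adjusted p = 0.0415). Fos was not called without WT day 14 replicate 1 (0.46, adjusted p = 0.293), KO day 14 replicate 1 (0.66, adjusted p = 0.15) or KO day 28 replicate 1 (0.80, adjusted p = 0.0679). Fosb was not called without WT day 14 replicate 1 (0.46) or without any 1 of the 6 KO libraries (1.63 to 1.77). With the compared groups alone Fosb was not called either (1.69, adjusted p = 0.0561). Jun was at -0.81 ± 0.14 (adjusted p = 0.000203), Junb at -0.76 ± 0.18 (adjusted p = 0.0034) and Egr1 at -0.93 ± 0.17 (adjusted p = 0.000405), and these 3 were called with each library left out in turn.

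From day 1 to day 28, Jun was at -1.33 ± 0.14 (adjusted p = 9.67e-07) and Egr1 at -0.96 ± 0.16 (adjusted p = 0.000215), both called with each library left out in turn. Egr1 was lower at day 28 than at day 1 in KO and higher in WT. Egr2 was at -0.87 ± 0.26 (adjusted p = 0.0213) and was not called without KO day 1 replicate 2 (-0.69, adjusted p = 0.15), KO day 28 replicate 2 (-0.61, adjusted p = 0.132) or WT day 1 replicate 2 (-0.80, adjusted p = 0.0824). Egr3 was at -0.83 ± 0.27 (adjusted p = 0.0356), and at -1.36 without KO day 28 replicate 1. Without KO day 1 replicate 1 or 2 or KO day 28 replicate 2 it was not called. Nor was it called without WT day 1 replicate 1 or 2 or WT day 28 replicate 1 (-0.41 to -0.87 over these runs). With all libraries kept, the Egr3 term was not called in DESeq2 (-0.81, adjusted p = 0.0656). With the compared groups alone it was not called either (-0.84, adjusted p = 0.0627).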

How the results depend on the processing

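Of 840 member values under settings that keep all libraries, 793 kept their direction and side of the threshold. The prior count of 0.5 is among these settings and enters the fold change but not the test, so it could not change a call. Signs turned in 3, with library totals only: Egr2 at day 1 (-0.020), Fos at day 28 (-0.071) and Egr3 at day 28 (-0.016), none of them called. Among these values, 24 gained a call and 20 lost one. The count of members called for KO minus WT in the change from day 1 to day 14 was 5, not 2, with no filter and with the compared groups alone. For KO minus WT at day 1 the count ran from 4 to 6 under these settings. With 1 library left out, 1302 of 1440 member values kept direction and call. The count called then ran from 2 to 4 for KO minus WT at day 1, 3 to 7 at day 14, 4 to 7 for KO day 28 minus day 1, and 2 to 4, 3 to 5 and 2 to 4 for KO minus WT in the changes from day 1 to 14, 14 to 28 and 1 to 28. With the cause not tested, log2 fold changes whose sign turned in that way ran as follows. For KO minus WT at day 1, Fos ran from -0.32 to 0.21, Egr1 from -0.023 to 0.32 and Egr2 from -0.14 to 0.19. At day 14, Egr1 ran from -0.058 to 0.30 and Egr3 from -0.031 to 0.36, and at day 28, Fos from -0.037 to 0.077 and Egr3 from -0.45 to 0.50. In WT, day 14 minus day 1, Fos ran from -0.22 to 0.46, Fosb from -0.94 to 0.87 and Egr2 from -0.077 to 0.46. In WT, Fos (-0.086 to 0.56) and Fosb (-1.49 to 0.32) turned for day 28 minus day 14 and Egr3 (-0.31 to 0.024) for day 28 minus day 1. In KO, Fosl1 (-0.65 to 0.12) and Egr2 (-0.33 to 0.0055) turned for day 14 minus day 1, Egr2 (-0.32 to 0.20) and Egr3 (-0.30 to 0.65) for day 28 minus day 14, and Egr2 (-0.50 to 0.028) for day 28 minus day 1. For KO minus WT in the change from day 1 to 14, Fosb ran from -1.81 to 9.2e-06 and Egr1 from -0.21 to 0.17. For day 14 to 28, Egr3 ran from -0.62 to 0.33 and Ier2 from -0.053 to 0.26, and for day 1 to 28, Fos from -0.18 to 0.35.

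Same-numbered replicates did not deviate together (correlations of -0.04 to 0.11 over 15 pairs of groups, 1 of them above 0.1), so the numbers were not taken as pairs. The replicate block left the counts of members called at 4, 6 and 7 for KO minus WT at days 1, 14 and 28 and changed 2 member calls: Ier2 in WT, day 28 minus day 1, was lost (-0.23, adjusted p = 0.0521), and Egr3 in the change from day 1 to 14 was gained (-0.73, adjusted p = 0.048). Depth was lowest for Fosl1 (9 to 96 counts per library) and Fosb (19 to 164), whose standard errors, 0.25 to 0.42 for KO minus WT, were the largest among the members. Replicates of Fosb also stood 1.62-fold apart in WT at day 1 and 3.51-fold apart in WT at day 14. Other members deviated in the same libraries. In WT at day 14, replicate 1 lay above replicate 2 in each member, from 1.02-fold in Jun to 1.45-fold in Egr2 and 1.57-fold in Fos (median gene 1.07-fold). In WT at day 1, replicate 2 lay above replicate 1 in Fos (1.44-fold), Junb (1.3-fold) and Egr1 (1.26-fold), and below it in Egr2 (1.11-fold).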

Other observations

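Of the other transgene rows, Tdtomato had 1 to 19 counts and Cre 0 to 1 in the 12 libraries.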
